A study of Homo sapiens with 4 samples.

Results

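HSPB1, the small heat shock protein HSP27, and 9 further heat shock genes (HSPA1A, HSPA8, HSPA4, HSPD1, HSPE1, HSPH1, DNAJB1, DNAJA1 and HSF1) were examined in squamous cell carcinoma cells that had received miR-489 or miR-504 by transfection. The 10 genes were found by their names on the arrays and were represented by 20 probes, out of 41000 probes carrying 30982 gene names. HSPB1 was chosen because its signal was higher after miR-504, and the others for comparison, with earlier results of these data known. The ratios of HSPB1 are therefore given as a description and were not tested. All 20 probes gave signals well above background in both dyes on all 4 arrays.

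The study sought the genes that respond to tumour-suppressive miRNAs in head and neck cancer. FaDu is an established line from a human hypopharyngeal squamous cell carcinoma (HSCC), and HSC3 one from a squamous cell carcinoma of the tongue. Each line received mature miR-489 or miR-504, and RNA taken 72 h later carried the dye Cy5. RNA from the same line given a control miRNA carried Cy3 and was hybridised with it, on 1 Agilent 2-colour array per combination, which makes 4 arrays. All cells in both channels had been transfected, no untransfected cells were hybridised, and no strain, genotype or other agent distinguished the groups. A log2 ratio (Cy5 over Cy3) above 0 means more RNA in the miRNA transfectant. Ratios were set to 0 along the range of signal by a within-array loess curve. All arrays were on 1 slide and the dyes were never exchanged, so that a dye effect of a probe and a change after transfection cannot be told apart in a ratio against the control. Such an effect cancels in the difference between the miRNAs. For the tests the 2 lines served as the replicates of each miRNA, and no source states separate cultures within a line, so p-values measure only the spread between these arrays. They also leave out the spread of the control RNA, which is present only as the denominator. RNA came from whole cultures, in which fewer cells of a type and less RNA per cell cannot be told apart.

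Heat shock proteins are molecular chaperones that bind unfolded proteins and help them to reach or regain their shape. Small members such as HSPB1 hold unfolding proteins without using ATP, HSP70 members such as HSPA8 and HSPA1A fold them in ATP-driven cycles started by J proteins (DNAJA1, DNAJB1) and completed by exchange factors of the HSP110 type (HSPH1, HSPA4), and HSPD1 with its lid HSPE1 forms the folding chamber of mitochondria. HSF1 is the transcription factor that switches on many of these genes after heat or other protein damage. High HSPB1 and HSP70 levels are well known in squamous epithelia and their tumours.

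The mature sequences of the transfected miRNAs are shown because each array is defined by one of them. They are RefSeq entries (GRCh38.p14, RNA strand), with the seed, bases 2 to 8 from the 5′ end, in capitals. miR-489 maps to chr7:93483947-93483968 and miR-504 to chrX:138667760-138667781 (5p arm) and chrX:138667724-138667744 (3p arm), all on the minus strand. The labels do not give the arm of miR-504, so both are shown. No pair of the 3 shares a seed.
hsa-miR-489-3p: gUGACAUCacauauacggcagc
hsa-miR-504-5p: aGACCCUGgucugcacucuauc
hsa-miR-504-3p: gGGAGUGCagggcaggguuuc

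Sequence upstream of the start is shown for the members that stood farthest apart, HSPB1 and HSPH1, and for the pair HSPD1 and HSPE1, which lie head to head and share a promoter region. The sequences are from RefSeq (GRCh38.p14). Capitals mark GAANNTTC or TTCNNGAA, paired units of the heat shock element that HSF1 is known to bind. Both patterns read the same on either strand. HSPB1 occupies chr7:76302673-76304292 on the plus strand, and the 250 bases before its start (chr7:76302423-76302672) hold 1 match, beginning 182 bases before the start. HSPH1 occupies chr13:31134973-31162388 on the minus strand, and the 250 bases before its start (chr13:31162389-31162638) hold none. The 104 bases between the starts of HSPD1 (minus strand) and HSPE1 (plus strand), chr2:197500275-197500378, hold none either and are given on the plus strand.
HSPB1 upstream: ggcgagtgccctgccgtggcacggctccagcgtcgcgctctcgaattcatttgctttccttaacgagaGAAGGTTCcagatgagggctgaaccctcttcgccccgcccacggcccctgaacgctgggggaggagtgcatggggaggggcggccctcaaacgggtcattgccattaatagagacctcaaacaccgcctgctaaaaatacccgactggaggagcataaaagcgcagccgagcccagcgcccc
HSPH1 upstream: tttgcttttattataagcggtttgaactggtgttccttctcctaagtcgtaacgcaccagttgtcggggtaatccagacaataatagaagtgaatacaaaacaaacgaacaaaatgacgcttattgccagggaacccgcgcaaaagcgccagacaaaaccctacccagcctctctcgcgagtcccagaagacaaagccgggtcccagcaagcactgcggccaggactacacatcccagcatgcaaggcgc
HSPD1 to HSPE1: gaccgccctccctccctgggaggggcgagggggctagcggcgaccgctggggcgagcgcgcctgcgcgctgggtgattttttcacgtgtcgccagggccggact

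Promoter entries, reaching from 250 bases before to 50 bases after a start, were found for 9 members in 12 entries, and GAANNTTC occurred in 7 of these 12, against 6.77% of 35116 entries of the same length. TTCNNGAA occurred in 3 of 12, against 7.74%. A run of 3 alternating units, in which both patterns overlap by 3 bases, occurred in 3 of 12, against 0.49%. HSPA8, the second HSPD1 entry and DNAJA1 held such a run. HSPB1, HSPA1A and DNAJB1 held GAANNTTC alone. HSPA4, HSPE1 and HSPH1 had no match to either pattern in these windows. The HSPE1 window begins at chr2:197500129. The run of the second HSPD1 entry (chr2:197499791-197500090) lies before that base, upstream of HSPE1 and outside its window. Whether a match bears on the ratio of a gene was not tested.

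HSPB1 stood apart from every other member on every array. Its brightest probe, A_32_P76247, gave log2 ratios of 1.48 in FaDu and 1.40 in HSC3 after miR-489, and 1.90 in FaDu and 1.72 in HSC3 after miR-504. The values of both lines after miR-504 lay above those of both lines after miR-489. Averaged over the lines, HSPB1 RNA was at 2.72-fold of the control after miR-489 (log2 1.44 ± 0.05, SD, n = 2) and at 3.51-fold after miR-504 (1.81 ± 0.12, SD, n = 2). In intensities after background subtraction and before normalisation, the FaDu miR-504 array gave 55684 (Cy5) against 8376 (Cy3). The HSC3 miR-504 array gave 34512 against 6688. The miR-489 arrays gave 36284 against 7400 in FaDu and 24278 against 5343 in HSC3. Such pairs exceed the normalised ratios, since Cy5 was the brighter channel for most members. HSPA8, for example, gave 74723 against 53650 on the FaDu miR-489 array, where its log2 ratio was −0.43.

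The other probes of HSPB1 gave much the same picture. A_23_P257704 gave 1.41 and 1.34 after miR-489 and 1.81 and 1.61 after miR-504, in FaDu and HSC3. A_24_P86537 gave 1.47 and 1.41 after miR-489 and 1.78 and 1.65 after miR-504. All 12 values exceeded 2-fold, from 2.53-fold to 3.72-fold. The probes are not independent views of the transcript, since they lie within 140 bases and 2 of them share 41 of their 60 bases. Under global median centring, 1 form of the global normalisation that the study names without giving its formula, the brightest probe stood higher still, at 1.71, 2.08, 1.60 and 1.92 in the order miR-489 in FaDu, miR-504 in FaDu, miR-489 in HSC3, miR-504 in HSC3, which is the order of all lists of 4 values here.

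**Figure D1:**
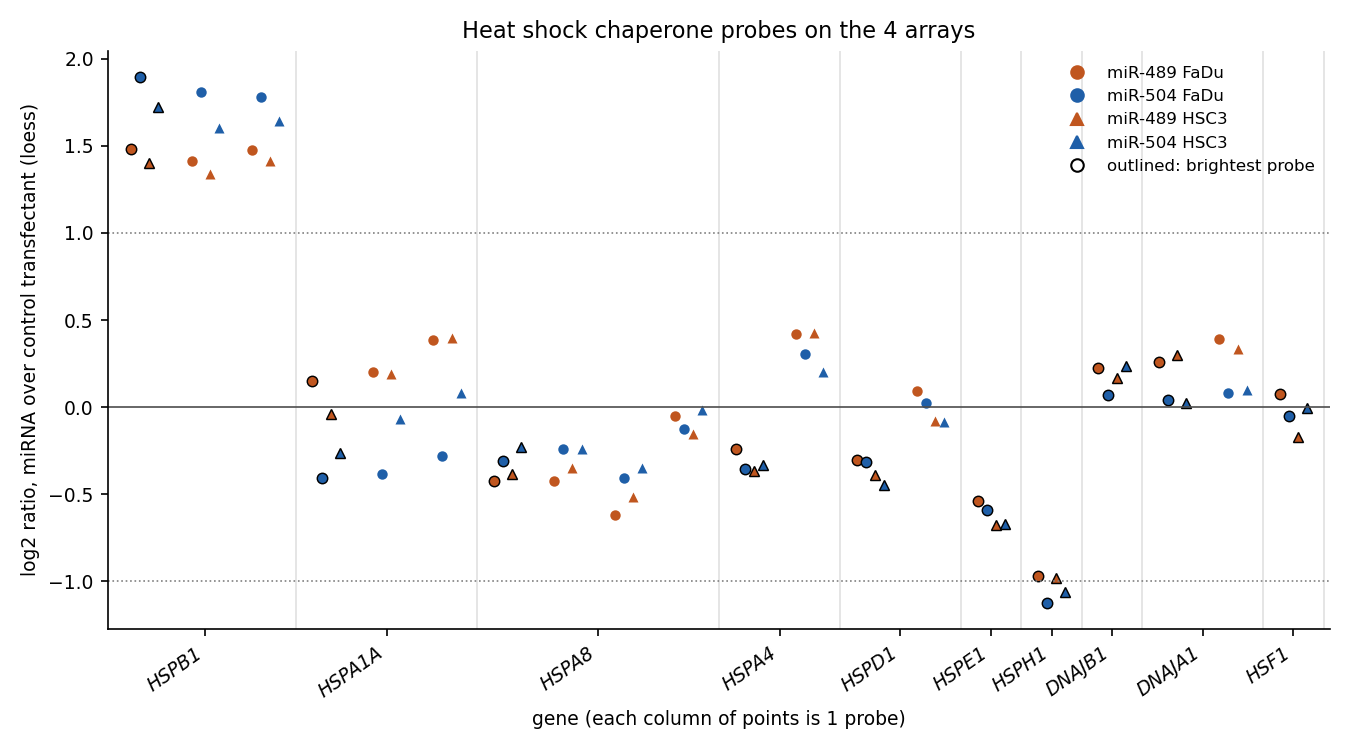
Log2 ratio (miRNA over control transfectant, loess; y axis) of the 20 probes of the 10 heat shock genes (x axis, 1 column of points per probe) on each of the 4 arrays; colour gives the miRNA, shape the line, and dotted lines mark 2-fold. The 12 points of HSPB1 lie between 1.34 and 1.90, whereas every other gene lies below 0.43, and HSPH1 is lowest at −0.97 to −1.13.

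Set against the whole array, HSPB1 was near the top. It was chosen for its higher signal after miR-504, so these ranks partly restate the choice and are a description only. Among genes with both signals well above background, 64 of 17352 genes had a higher ratio than HSPB1 on the FaDu miR-489 array. This number was 9 of 17356 for FaDu miR-504, 86 of 17597 for HSC3 miR-489 and 12 of 17407 for HSC3 miR-504. The 10% of genes with the brightest control signal comprised 1561 genes, among them 9 of the 10 members (all but DNAJB1), and 0 of these genes had a higher ratio than HSPB1 on any of the 4 arrays. Among them, 5% lay above 0.71, 0.69, 0.64 and 0.64, and 5% lay below −1.47, −1.44, −1.46 and −1.33.

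Both reference genes were also above 0 on all 4 arrays. GAPDH, a glycolytic enzyme, gave 0.68, 0.56, 0.63 and 0.56, and ACTB, cytoplasmic actin, gave 0.62, 0.52, 0.79 and 0.69. HSPB1 exceeded GAPDH by 0.80, 1.33, 0.78 and 1.17 and ACTB by 0.86, 1.38, 0.61 and 1.03 on the log2 scale. The excess over either gene was larger after miR-504 than after miR-489 in both lines. This partly restates the choice of HSPB1 and is a description only. As a check of the labels, PTPN11, the phosphatase that the study examined as a miR-489 target, gave −3.41 and −3.38 with miR-489 and −1.43 and −1.23 with miR-504, in FaDu and HSC3. The epithelial markers KRT5, KRT14, TP73L, CDH1 and TACSTD1 had Cy3 signals well above background on 4 of 4 arrays, whereas COL1A2, PTPRC, PECAM1 and CDH5, of fibroblasts, leukocytes and endothelium, had them on 0, and COL1A1 and DCN on 1.

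The order of the arrays for HSPB1 was the same at all 3 probes: FaDu miR-504 highest, then HSC3 miR-504, FaDu miR-489 and HSC3 miR-489. HSPB1 was chosen for its signal after miR-504 and the probes are not independent, so this order is a description only. With the brightest probe, miR-504 exceeded miR-489 by 0.42 in FaDu and by 0.32 in HSC3. The other probes gave 0.40 and 0.27 (A_23_P257704) and 0.31 and 0.23 (A_24_P86537). The step from HSC3 to FaDu within a miRNA was smaller, 0.08 after miR-489 and 0.17 after miR-504 at the brightest probe. For comparison, replicate spots of one probe on one array had an SD of 0.087 to 0.099, so the step between the lines after miR-489 was within the spread of spots. This SD does not measure the spread between arrays, so a step beyond it is not thereby shown to be a difference.

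The genes with the most HSPB1-like pattern were sought by the root mean square difference of the 4 log2 ratios, among 15602 genes well above background in both dyes on all arrays. The nearest were 2 unnamed transcripts (AV739766 with 0.11 and BU616488 with 0.15), followed by TBL3 (0.19), C19orf20 (0.21) and YWHAE (0.22), a 14-3-3 adaptor protein. TBL3 gave 1.59, 1.58, 1.28 and 1.63, and YWHAE gave 1.59, 1.61, 1.41 and 1.39. YWHAE did not share the step between the miRNAs: its FaDu ratios differed by less than the spread of spots, and its HSC3 ratios too. None of the 5 is a chaperone gene of the lists used here.

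Of the 9 other members, none followed HSPB1 beyond 2-fold. On each array HSPB1 was at least 2-fold higher and 0 of the 9 others were, where 2.78%, 2.47%, 2.65% and 1.91% of all genes were. HSPB1 was chosen for its signal after miR-504, so its own place in this count is a description only. At least 2-fold lower were 0 of 10 members on the miR-489 arrays, where 6.43% of genes in FaDu and 5.35% in HSC3 were, and 1 of 10, HSPH1, on the miR-504 arrays, where 4.41% in FaDu and 3.76% in HSC3 were. The median of the 10 members was −0.08, −0.31, −0.27 and −0.25, against −0.01 for all genes on each array. For the 10% of genes with the brightest control signal, which hold 9 of the members, the median was −0.10, −0.10, −0.09 and −0.09. The medians of the members moved to 0.15, −0.04, −0.04 and 0.02 under global median centring.

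With the lines as replicates, limma called 5 of the 9 lower and 1 higher after miR-489, and 6 lower and 0 higher after miR-504 (adjusted p below 0.05 over 20912 probes). The fit called many genes: 28.9% lower and 26.3% higher after miR-489, and 26% lower and 23.3% higher after miR-504. HSPA8, HSPA4, HSPD1, HSPE1 and HSPH1 were called lower after both miRNAs, HSPA1A lower after miR-504 and DNAJA1 higher after miR-489. These calls are of the brightest probe of each gene, and HSPA4, counted here as lower, had another probe that was called higher after both miRNAs. Under global median centring the split was 3 higher and 2 lower after miR-489 and 0 higher and 2 lower after miR-504, so that HSPE1 and HSPH1 alone were called lower after each miRNA under both normalisations. Without the FaDu miR-504 array or without the HSC3 miR-504 array, HSPE1 and HSPH1 were likewise the 2 members called after miR-504. Without the HSC3 miR-489 array 3 members were called after miR-489, HSPA8, HSPE1 and HSPH1.

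HSPH1, an HSP110 protein that exchanges the nucleotide of HSP70 and prevents aggregation, was the lowest member. Its single probe gave −0.97, −1.13, −0.98 and −1.06. The 4 values lay within 0.16 of each other, with the miR-504 array the lower of each line. HSPH1 was also the one member whose Cy5 intensity lay below its Cy3 intensity on every array before normalisation: 12619 against 14185, 12136 against 15132, 15366 against 17445 and 17091 against 22605. HSPH1 fell by 0.98 after miR-489 (SE 0.07, adjusted p = 0.00065, limma) and by 1.09 after miR-504 (SE 0.07, adjusted p = 0.00077), to 0.509 and 0.468 of the control. Global centring gave −0.75, −0.97, −0.77 and −0.85, so that no array then reached 2-fold. On the whole array HSPH1 was not extreme: 6.06%, 2.73%, 5.09% and 2.67% of genes were lower.

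Of the mitochondrial chaperonin genes, HSPE1 was lower after both miRNAs, and for HSPD1 1 of 2 probes was. HSPE1, the HSP10 lid, gave −0.54, −0.59, −0.68 and −0.67, with no separation of the miRNAs. It fell by 0.61 after miR-489 (SE 0.08, adjusted p = 0.0026, limma) and by 0.63 after miR-504 (SE 0.08, adjusted p = 0.003). Global centring left −0.23, −0.34, −0.42 and −0.42, still below 0 on 4 of 4 arrays. HSPD1, the HSP60 barrel, which shares the promoter region shown above with HSPE1, gave −0.31, −0.32, −0.39 and −0.45 at its brightest probe. This probe passed the test after miR-489 (log2 −0.35, adjusted p = 0.015) and after miR-504 (−0.38, adjusted p = 0.013).

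The HSPD1 result depended on the probe and on the normalisation. Its second probe, 10582 bases away along the genome and with a Cy3 intensity of 544 to 1044 against 48331 to 65948 for the first, gave 0.09, 0.02, −0.08 and −0.09 and was not called after either miRNA (adjusted p = 0.96 and 0.77). Under global centring the first probe gave 0.03, −0.04, −0.11 and −0.17 and was not called. Of the pair, HSPE1 was called lower after both miRNAs under every setting that was run, whereas HSPD1 was not.

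The plot of ratios by signal shows where these genes lie. Most members were among the brightest genes, and with global centring the median ratio of all probes varied with signal: the dimmest quartile of Cy3 had medians of −0.28, −0.22, −0.33 and −0.27 and the brightest 0.14, 0.08, 0.13 and 0.10. After loess the dimmest quartile lay between 0.06 and 0.08 and the brightest between −0.05 and −0.04. Global centring therefore placed HSPD1 0.28 to 0.34 higher than loess and HSPA8 0.26 to 0.32 higher, but DNAJB1, the dimmest member, by no more than 0.13. With it the mean of HSPA8 after miR-504 changed sign, from −0.27 to 0.01.

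**Figure D2:**
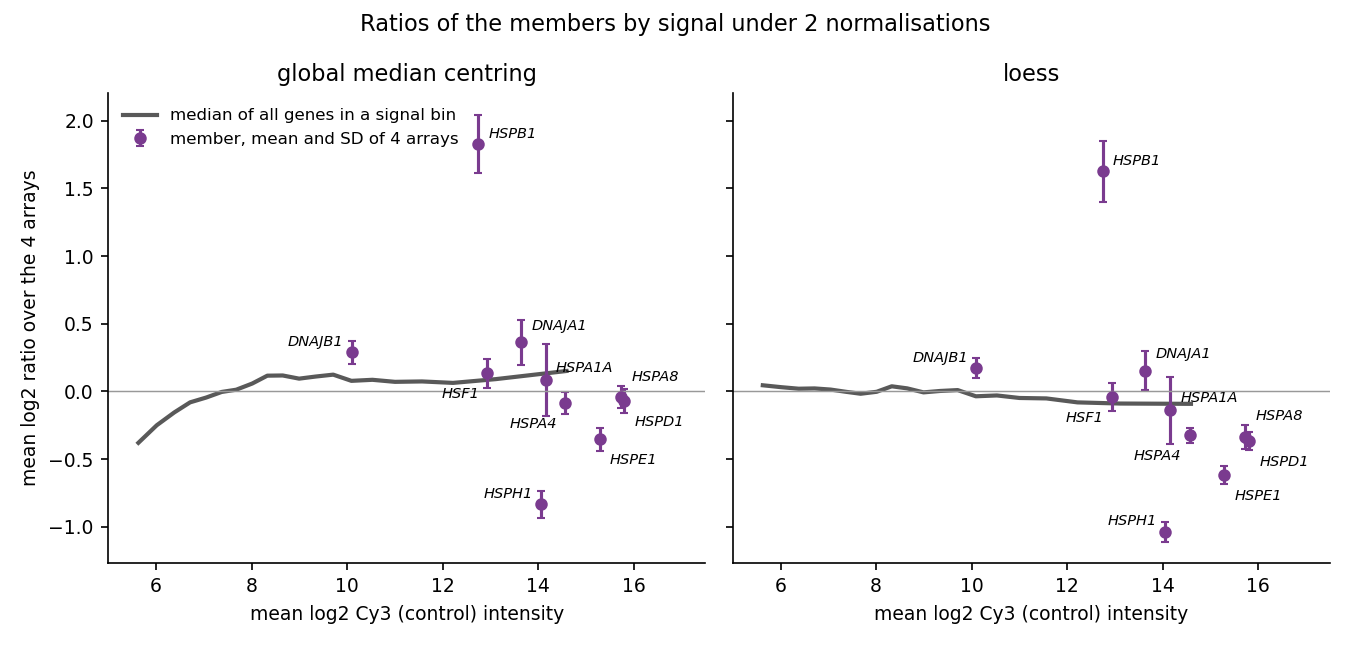
Mean log2 ratio over the 4 arrays (y axis) against mean log2 Cy3 intensity (x axis) for the brightest probe of each member, with the SD over 4 arrays as bars, under global median centring (left) and loess (right); the grey line is the median of all genes in bins of signal. HSPB1 lies far above the line and HSPH1 below it in both panels, whereas HSPA8, HSPA4 and HSPD1 lie near 0 with global centring and below 0 with loess.

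Among the HSP70 genes, HSPA8, the constitutive HSC70 of the cytoplasm, gave −0.43, −0.31, −0.38 and −0.23 at its brightest probe. All 16 values of its 4 probes lay below 0, from −0.62 to −0.02. It fell by 0.40 after miR-489 (SE 0.08, adjusted p = 0.0079, limma) and by 0.27 after miR-504 (SE 0.08, adjusted p = 0.034). Of its probes, 2 have the same coordinates and another overlaps them by 42 of 60 bases. The fourth, 2145 bases away, gave −0.05, −0.12, −0.15 and −0.02 and was not called (adjusted p = 0.32 and 0.50). Global centring gave −0.10, −0.05, −0.10 and 0.07 at the brightest probe, which was then not called, and the mean pixel intensity left it uncalled after miR-504 (adjusted p = 0.061).

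HSPA4, an HSP110 relative, had 2 probes that disagreed in direction. The brighter one gave −0.24, −0.35, −0.37 and −0.33 and was called lower after both miRNAs (adjusted p = 0.022 and 0.017, limma). The dimmer one, 4739 bases away, gave 0.42, 0.31, 0.43 and 0.20 and was called higher after both (adjusted p = 0.0071 and 0.042). The probes did not overlap on any array. No direction can be given for HSPA4 as a gene.

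HSPA1A, the heat-inducible HSP70, had higher ratios after miR-489 than after miR-504 in both lines. Its brightest probe gave 0.15 and −0.04 after miR-489, in FaDu and HSC3, and −0.41 and −0.26 after miR-504. A_24_P123616 gave 0.20 and 0.19 after miR-489 and −0.39 and −0.07 after miR-504. A_24_P682285 gave 0.39 and 0.40 after miR-489 and −0.28 and 0.08 after miR-504. At each of the 3 probes both miR-489 values lay above both miR-504 values, and the 3 probes do not overlap in sequence.

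The excess of miR-489 over miR-504 for HSPA1A was 0.56, 0.59 and 0.67 in FaDu and 0.22, 0.26 and 0.32 in HSC3, over the 3 probes. The limma contrast between the miRNAs did not call any of them. The difference at the brightest probe was 0.39 with a 95% interval of 0.07 to 0.70 before adjustment and an adjusted p of 0.19, and the other probes had adjusted p-values of 0.20 and 0.17. Against the control, the brightest probe was called lower after miR-504 (log2 −0.33, adjusted p = 0.028) and not called after miR-489 (0.05, adjusted p = 0.63). A_24_P682285 was called higher after miR-489 (0.39, adjusted p = 0.026). Under global centring the brightest probe was instead called higher after miR-489 (0.30, adjusted p = 0.047) and not called after miR-504 (−0.13, adjusted p = 0.32), so for HSPA1A the step between the miRNAs was kept while its position against 0 moved. HSPA1B, a near-identical copy of HSPA1A, has no probe of that name on the array, and its RNA may add to these signals.

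**Figure D3:**
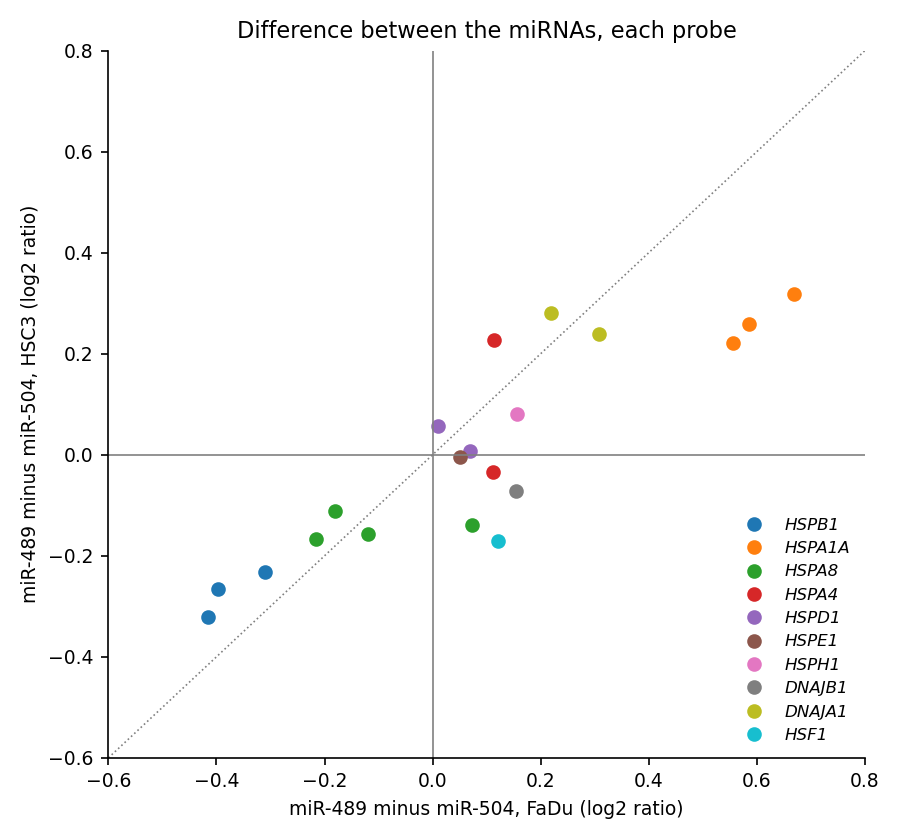
Difference of the log2 ratio between miR-489 and miR-504 in FaDu (x axis) and in HSC3 (y axis) for each of the 20 probes, coloured by gene; the dotted line marks equal differences. The 3 HSPA1A probes lie at the upper right and the 3 HSPB1 probes at the lower left, and most others lie near 0.

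The J proteins gave small positive ratios. DNAJA1, a J protein that delivers substrates to HSP70, gave 0.26, 0.04, 0.30 and 0.02 at its brightest probe, so the miR-489 arrays of both lines lay above the miR-504 arrays. It rose by 0.28 after miR-489 (SE 0.07, adjusted p = 0.024, limma), and its second probe rose by 0.36 (adjusted p = 0.010). After miR-504 the values were 0.03 (adjusted p = 0.76) and 0.09 (adjusted p = 0.36). The difference between the miRNAs was 0.25 (95% interval −0.01 to 0.51, adjusted p = 0.28) and 0.27 (0.01 to 0.54, adjusted p = 0.25) and was not called. The call after miR-489 was lost when any 1 of the 4 arrays was left out (adjusted p = 0.058 to 0.11).

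DNAJB1, the HSP40 that is strongly induced by heat, gave 0.22, 0.07, 0.17 and 0.24, all above 0. It was not called after miR-489 (0.19, adjusted p = 0.097) or miR-504 (0.15, adjusted p = 0.18). Global centring gave 0.32 after miR-489 and a call (adjusted p = 0.025). HSF1, the heat shock transcription factor, gave 0.07, −0.05, −0.17 and −0.01, on both sides of 0. Its means were −0.05 after miR-489 (95% interval −0.28 to 0.18) and −0.03 after miR-504 (−0.25 to 0.20), and neither was called (adjusted p = 0.66 and 0.83).

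Between the miRNAs, limma called 0 of the 9 tested members (smallest adjusted p = 0.19), against 1.72% of 15723 genes. At an unadjusted p below 0.05, 1 of the 9 members was counted, HSPA1A, where 18.9% of the 20912 probes were, so this count was no more than the background. With the cell line as a block in the fit, 0 members were called as well, and the HSPA1A probes had adjusted p-values of 0.23, 0.20 and 0.16. At the brightest probe, HSPH1, HSPE1, HSPD1, HSPA4, DNAJB1 and HSF1 differed between the miRNAs by no more than 0.12 in size. The narrowest of their 95% intervals ran from −0.15 to 0.38 (HSPH1). These intervals do not show that the miRNAs acted alike on them.

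The response of the members was not told apart between the lines. FaDu and HSC3 were set against each other over both miRNAs, and limma called 0 of the 9 members (0% of all genes were called), with 0 of 9 at an unadjusted p below 0.05 and 0.9999 as the smallest adjusted p. Across the array 480 of 20912 probes had an unadjusted p below 0.05. This fit leaves the miRNA out, so differences between the miRNAs enter its spread. With the miRNA as a block in the limma fit, 1200 probes had an unadjusted p below 0.05, and again 0 members and 0 probes were called. Within a miRNA, the brightest probes of the members differed between the lines by 0.25 at most, for HSF1 after miR-489 (higher in FaDu). HSPA1A after miR-504 was lower in FaDu by 0.14 at its brightest probe and by 0.32 and 0.36 at the others.

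The control channel gives the level of each gene in cells given the control miRNA, without miR-489 or miR-504. It was scaled to the 75th percentile of each array and is given in log2 units above it, brightest probe. HSPB1 was at 4.35 and 4.54 in the FaDu controls and at 3.79 and 3.86 in the HSC3 controls, 1.54-fold higher in FaDu. HSPE1 was 1.51-fold and HSPD1 1.49-fold higher in FaDu, while DNAJA1 was 1.38-fold and HSF1 1.19-fold higher in HSC3. The control channels of the lines did not overlap for 9 of 10 members, the exception being HSPA1A (5.39 and 5.75 against 5.50 and 5.53). Such separation was common, since it held for 77.0% of 15602 genes, and the control channels of a line may be 1 RNA hybridised on both arrays, so no test was made.

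**Figure D4:**
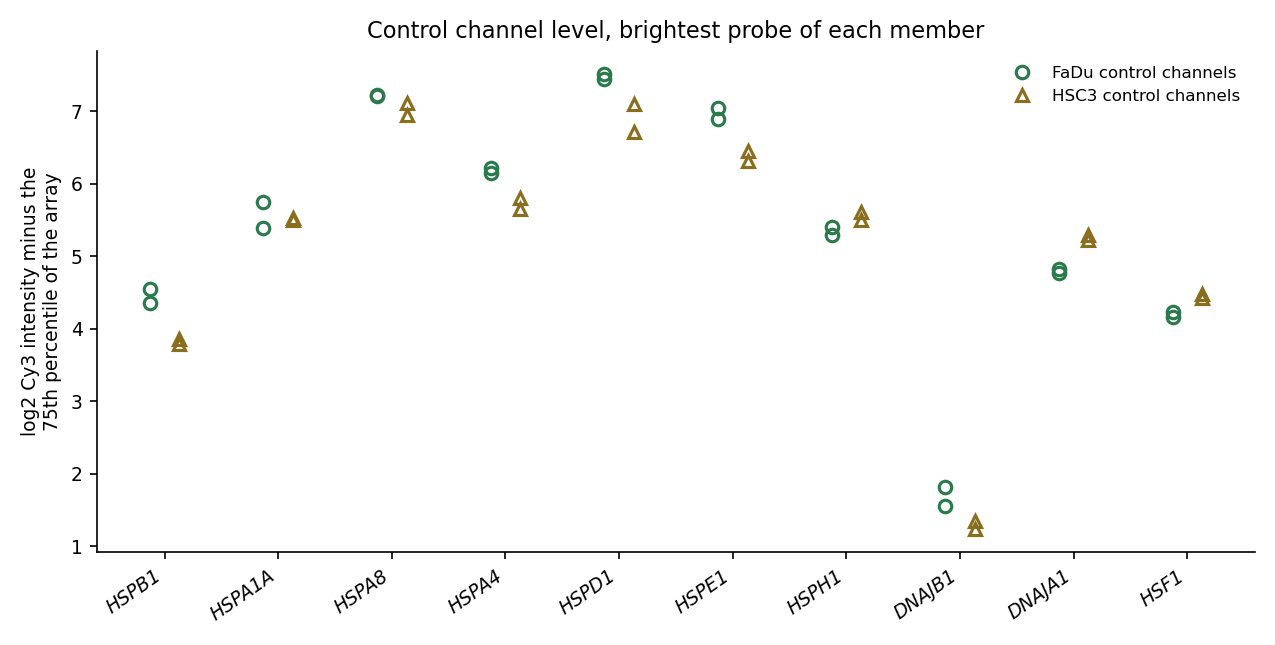
Log2 Cy3 intensity of the control transfectants above the 75th percentile of the array (y axis) for the brightest probe of each member (x axis), with 1 point per array. FaDu lies above HSC3 for HSPB1, HSPA8, HSPA4, HSPD1, HSPE1 and DNAJB1, and below it for HSPH1, DNAJA1 and HSF1. Levels of different genes are from different probes and are not comparable with each other.

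Outside the 10 members, a wider list of 64 chaperone and heat shock genes in 8 families was followed, of which 62 were on the array and 51 could be tested. After miR-489, 16 of the 51 were called higher and 18 lower, and after miR-504 14 higher and 14 lower. Of all genes, the fit called 26.3% higher and 28.9% lower after miR-489, and 23.3% higher and 26% lower after miR-504. The family counts given below have these same shares as their background. The medians of the 51 were 0.04 and −0.02, against −0.01 for all genes in either comparison. No shift of the families together with HSPB1 was seen in these counts. Values for the genes named below are means of all 4 arrays unless stated.

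Of the small heat shock proteins, the family of HSPB1, 8 were on the array and 1 passed the filter on control signal. This gene, HSPB9, gave −0.53, −0.89, −0.96 and −0.74 and was called lower after both miRNAs (adjusted p = 0.0049 and 0.0045, limma). HSPB2 was not well above background on any array in either dye. HSPB9, the 1 tested relative of HSPB1, thus lay below 0 on the 4 arrays on which HSPB1 lay above 0. It does not stand for the family, since a relative without control signal could not be tested. Some untested relatives were above background in Cy5 on 2 or 3 arrays.

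The HSP70 and HSP110 family had 7 tested genes outside the members, with 1 higher and 3 lower after miR-489 and 0 higher and 2 lower after miR-504. HSPA13 (STCH on the array), a microsome-associated HSP70, gave −1.51 and −1.71 after miR-489, in FaDu and HSC3, and 0.11 and −0.58 after miR-504. It was called lower after miR-489 (−1.61, adjusted p = 0.0014) and not after miR-504 (−0.23, adjusted p = 0.30). The difference between the miRNAs, −1.37, had an adjusted p of 0.067, and of 0.036 with the cell line as a block. HSPA12A, a distant HSP70 relative, was lower after both (−0.55). In the HSP90 family, whose members mature kinases and receptors, HSP90AB1 (0.28) and TRAP1 (0.24) were called higher after miR-489 (adjusted p = 0.011 and 0.040) and neither after miR-504, and none of 3 was lower.

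Among J proteins outside the members, 4 of 7 were higher and 2 of 7 lower after each miRNA, with medians of 0.54 after miR-489 and 0.37 after miR-504. DNAJA2 (0.62), a close relative of DNAJA1, was higher after both miRNAs and DNAJB5 (−0.91) lower after both, with −0.60 and −0.75 after miR-489 and −1.13 and −1.15 after miR-504. Subunits of the cytosolic chaperonin TRiC, which folds actin and tubulin, went both ways: 3 of 8 were higher and 4 lower after miR-489, and 3 higher and 3 lower after miR-504. CCT7 was highest (0.85) and CCT2 lowest (−0.62), although both proteins belong to the same ring.

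Co-chaperones, which steer HSP70 and HSP90, had 5 of 15 higher and 3 lower after miR-489 and 6 higher and 3 lower after miR-504. BAG3 (0.73), a partner of HSP70 and of small heat shock proteins and a known HSF1 target, gave 0.81, 0.78, 0.81 and 0.53, and BAG5 (0.59) behaved likewise. Both were called higher after both miRNAs. Among 7 chaperones of the endoplasmic reticulum, 0 were higher and 4 lower after miR-489 and 0 higher and 2 lower after miR-504, with DNAJC3 (−0.73) and HYOU1 (−0.65) lowest. Of 3 tested genes related to heat shock factors, HSF4 was called higher after both miRNAs (0.71), at 0.65, 0.94, 0.29 and 0.97. Under global centring it gave 0.43, 0.81, −0.19 and 0.66, so the HSC3 miR-489 value then lay below 0. HSF2BP, not tested, was not above background in Cy3 on any array.

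**Figure D5:**
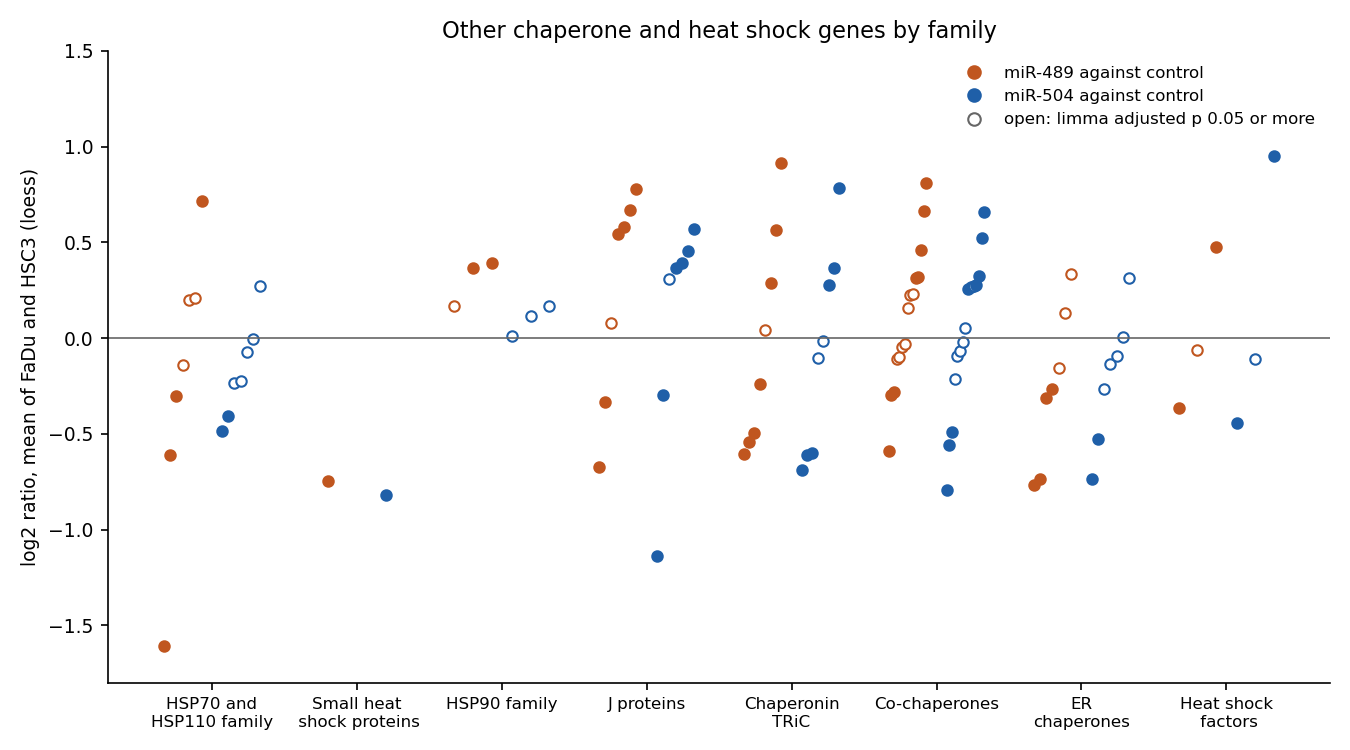
Mean log2 ratio of FaDu and HSC3 (loess; y axis) for 51 chaperone and heat shock genes outside the 10 members, by family (x axis), after miR-489 and after miR-504; filled points passed the limma test and open points did not. Higher and lower genes occur side by side in most families, and the lowest point is HSPA13 after miR-489 at −1.61.

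Between the miRNAs, 0 of the 51 genes of the wider list were called by limma, with 8 at an unadjusted p below 0.05, where 18.9% of all probes were. Between the lines 0 were called, with 3 at an unadjusted p below 0.05, where 2.3% of all probes were.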

How the data were processed

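On 4 arrays, miR-489 or miR-504 transfectants (Cy5) of the FaDu and HSC3 lines were set against control transfectants (Cy3). Groups, dyes and lines were taken from the labels. The authors deposited scanner output from Feature Extraction 9.5.3.1 with unnormalised median and mean intensity per spot and background. The deposited log10 ratios, normalised by that software, and a deposited table identical to them (largest difference 0) served as an alternative after conversion to the log2 scale. The deposited marks for outliers, saturation and signal above background were used as filters.

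From each median intensity the median of the local background was taken off, and log2 ratios were normalised within each array by loess (limma, span 0.3, 4 iterations). Outlier spots (118 to 137 of 43376 per array) were left out, and 0 spots were saturated. Each member probe had 1 spot per array. Cy3 was well above background for 58.2% to 59.2% of spots and Cy5 for 61.2% to 62.6%. Arrays give no counts, so the number of arrays limits the precision. The probe with the highest mean log2 Cy3 stood for its gene. The study names a global normalisation without a formula. It was taken as median centring and run as an alternative, because under it ratios varied with signal.

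limma (lmFit, eBayes) was fitted to 20912 probes whose Cy3 was well above background throughout (2 residual degrees of freedom), with a Benjamini-Hochberg threshold of 0.05 over all probes. The block by cell line was an alternative, since arrays of a line share that line (correlation of the line deviations between the miRNAs 0.03). For the contrast between the lines, the miRNA as a block was likewise an alternative. The script was tested on simulated data. Alternatives were normexp (offset 50), no background subtraction, mean pixel intensity, the deposited ratios, outliers kept, other filters, the mean of all probes, 1.5-fold and each array left out. Named were all members and their probes, in each family the 2 genes with the largest mean ratio in size, genes called in either contrast between arrays, the 5 genes most like HSPB1, GAPDH, ACTB and PTPN11.

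The members and lists were chosen with earlier results of these data known. All 20 member probes matched RefSeq symbols through their transcript identifiers. The build of the probe coordinates is not given in the sources used here, so only distances between probes are given. No sequence of HSF1 is shown. Python 3.11.15 with pandas 2.3.3 and matplotlib 3.10.9 and R 4.3.3 with limma 3.58.1 were used.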

Additional observations from a re-analysis of the deposited data

How the results depend on the processing

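The calls of HSPH1 and HSPE1 as lower after each miRNA were kept under every alternative run. HSPB1 also stayed the 1 member at least 2-fold higher on each array, a description only, as it was chosen for its signal. Other results moved. The median of the 10 members (−0.08, −0.31, −0.27 and −0.25, arrays in the order used above) became 0.15, −0.043, −0.039 and 0.020 under global median centring and 0.081, −0.098, −0.072 and −0.076 with the mean of all probes, and −0.44 for miR-504 in FaDu with the deposited ratios. Members at least 2-fold lower numbered 1 instead of 0 on both miR-489 arrays with normexp, without background subtraction and with the deposited ratios, and on that of HSC3 also with mean pixels. On the miR-504 arrays they numbered 0 instead of 1 under global centring. At 1.5-fold they numbered 1, 2, 2 and 2.

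Members called after miR-489 numbered 6, but 2 with no filter on dim probes, and 3 to 5 with 1 array left out, a miRNA's remaining array then being assumed to vary like the others. After miR-504 they numbered 6, but 2 with global centring, 2 with no filter, 3 with the mean of all probes and 2 to 6 with 1 array left out. HSPA4 after miR-489 turned to 0.059 with the mean of all probes (adjusted p = 0.52), its probes having opposite signs, and HSPA8 after miR-504 turned to 0.014 under global centring (adjusted p = 0.89).

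Genes of the wider list called after miR-489 numbered 34, but 14 with no filter and 21 to 28 with 1 array left out. After miR-504 they numbered 28, but 9 with no filter and 8 to 30 with 1 array left out. Between the miRNAs 2 were called with normexp, 1 without background subtraction and 1 (HSPA13) with the replicate block by cell line, instead of 0. The replicate block changed no call of a member, and left 323 probes called in place of 347.

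Over all probes, those called after miR-489 numbered 11329, but 5608 with no filter. After miR-504 they numbered 9944, but 3380 with no filter, 3203 without the FaDu and 4133 without the HSC3 miR-504 array. Between the miRNAs they numbered 347, but 223 with global centring, 783 with normexp, 823 without background subtraction, 0 with no filter and 0 to 314 with 1 array left out. The causes were not tested. With 2 arrays per miRNA and no exchange of dyes, dye effects of single probes cannot be told apart from small changes against the control.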
